A study of Mus musculus with 4 samples.

Results

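The tripartite motif (Trim) family was followed in bulk RNA sequencing of sorted mouse bone marrow stromal cells. Its members were taken by name, as every row of the count table whose symbol starts with Trim and a digit, which gave 56 genes among 17230 rows. The comparison is of 4 libraries, 2 labelled Hes1-derived against 2 labelled Fgfr3-derived. All came from femurs of mice at postnatal day 21 whose lineage mark was switched on by tamoxifen at embryonic day 12.5. The Hes1-derived mice carried Cxcl12(GFP/+), Hes1(CreER/+) and R26R(tdTomato/+), and the Fgfr3-derived mice carried Cxcl12(GFP/+), Fgfr3-iCreER and R26R(tdTomato/+). Both groups thus shared the GFP allele of Cxcl12 and the tdTomato reporter, and differed in the Cre driver, so that driver and origin cannot be told apart. The labels call the cells CXCL12-abundant reticular (CAR) cells positive for GFP and tdTomato, while the extraction text names tdTomato alone and a droplet single-cell loading. The series title calls the data bulk, each library has 1 column of counts, and the libraries were treated as bulk here. Whether each library held 1 mouse or a pool is not given in the labels used, so p-values measure only the spread between these libraries, which may be technical.

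Trim proteins are mostly ubiquitin ligases. A RING domain, 1 or more B-boxes and a coiled coil form the shared front part, and the rear part differs between members and sets what they bind. Many members with a SPRY rear domain act in innate immunity and are induced by interferon, whose receptors signal to factors that bind the interferon-stimulated response element (ISRE) near gene starts. Trim10 and Trim58 are known from the last steps of red cell formation: Trim10 was found as a RING finger gene needed for erythroid maturation in mouse cells, and Trim58 marks the motor protein dynein for degradation as the erythroblast loses its nucleus.

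Libraries were of similar depth, with 22745128 and 23625327 counted reads for Hes1-derived replicates 1 and 3, against 26025607 and 26804832 for Fgfr3-derived replicates 2 and 3. Hes1-derived libraries had 751 of 14330 tested genes higher and 940 lower (edgeR, adjusted p under 0.05), so that 44.4% of the calls were higher. The share reached 89.96% when stroma list reads set the scale and 94.5% when eGFP reads did, which moved the median gene to log2 fold changes of 0.63 and 0.83. All 27 listed CAR cell markers were detected, and their summed level was 27259 and 17241 CPM (reads relative to library size, scaled by TMM) in Hes1-derived against 39614 and 28349 CPM in Fgfr3-derived libraries. Markers of blood cells were also present, and their values are given beside the results. In bulk samples, fewer cells of a type and less RNA per cell cannot be told apart.

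Gene starts of 7 interferon-induced members held the ISRE letters. The windows are shown because 2 of the members past the test, Trim30a and Trim30d, are among them. The others, Trim12a, Trim12c, Trim21, Trim26 and Trim34a, did not pass the test. The RefSeq promoter table (build GRCm38.p6, 250 bases before to 50 after each start) held 43 of the 56 members. The ISRE was searched on both strands as GAAA, any 2 bases and GAAA, and overlapping matches were shown in 1 window. It was found at 7 of the 12 interferon-induced members that the table holds and at 1 of 29 other members, Trim2, and at 3.99% of all 27025 genes of the table (3.44% of its 32851 promoters). Each window below holds 30 bases on the strand of its gene, with the matched bases in capitals, and TTTC, any 2 bases and TTTC is the same motif on the opposite strand.
Trim30a, chr7:104465210-104465239, minus strand: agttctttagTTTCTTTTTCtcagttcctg
Trim30d, chr7:104507871-104507900, minus strand: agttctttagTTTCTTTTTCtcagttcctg
Trim12a, chr7:104315466-104315495, minus strand: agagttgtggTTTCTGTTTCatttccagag
Trim12c, chr7:104353359-104353388, minus strand: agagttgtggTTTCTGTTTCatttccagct
Trim34a, chr7:104244457-104244486, plus strand: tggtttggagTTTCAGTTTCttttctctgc
Trim21, chr7:102565447-102565476, minus strand: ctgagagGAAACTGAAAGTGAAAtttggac
Trim26, chr17:36836979-36837008, plus strand: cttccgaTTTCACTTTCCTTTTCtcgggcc
The Trim30a and Trim30d windows were identical in 30 of 30 bases, and those of Trim12a and Trim12c in 28 of 30. The windows of Trim21 and Trim26 each hold 2 overlapping matches. Trim30a has another start in the table, whose window also holds a match. No match was found in the windows of Trim6, Trim25, Trim30b, Trim34b and Trim56, and Trim14 was not in the table. A match describes the letters only and is not a measured binding site.

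One erythroid member is shown for its GATA match. The motif of GATA factors, AGATAA on either strand, was present at 4 of the 43 members in the table (9.30%), Trim10, Trim34b, Trim39 and Trim72, and at 12.7% of all genes, so that its share among the members was not above that of all genes. In Trim10 it lies 163 to 158 bases before the start.
Trim10, chr17:36869399-36869428, plus strand: agctcaagagccTTATCTgagtccccacac
The Trim58 window held no such match.

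Most of the family was measured. Of the 56 members 42 passed the low-count filter, and the other 14 had between 2 and 36 reads over the 4 libraries. Those 14 are Trim9, Trim15, Trim17, Trim38, Trim43a, Trim43b, Trim43c, Trim55, Trim61, Trim63, Trim66, Trim67, Trim71 and Trim72. They include Trim63 and Trim55, muscle ring finger genes, and Trim72, which works in muscle membrane repair; listed skeletal muscle genes were low as well, with sums of 22.5 and 14.0 CPM in Hes1-derived against 14.9 and 19.5 CPM in Fgfr3-derived libraries. Trim71, a stem cell gene, had 2 reads in all. A member that was low in both groups could not be compared at this depth.

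Among the 42 tested members, 10 were higher in Hes1-derived libraries (23.8%, where 5.24% of all tested genes were called higher) and 1 was lower (2.38%, where 6.56% were called lower). The median log2 fold change of the 42 was 0.31, against −0.02 over all tested genes. Hes1-derived libraries lay above both Fgfr3-derived libraries for 21 members (29.8% of all genes) and below both for 11 (32.1% of all genes), so that 32 members did not overlap between groups, where 61.9% of all genes did not. By role, 2 of 2 erythroid members, 5 of 13 interferon-induced members and 3 of 27 other members were higher, and the single lower member, Trim47, was among the others. The medians of these roles were 1.98, 0.91 and −0.01. The count of 10 higher members was 5 without Hes1-derived replicate 1, 1 without Hes1-derived replicate 3, 3 without Fgfr3-derived replicate 2, 9 without Fgfr3-derived replicate 3 and 3 after scaling to eGFP.

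**Figure D1:**
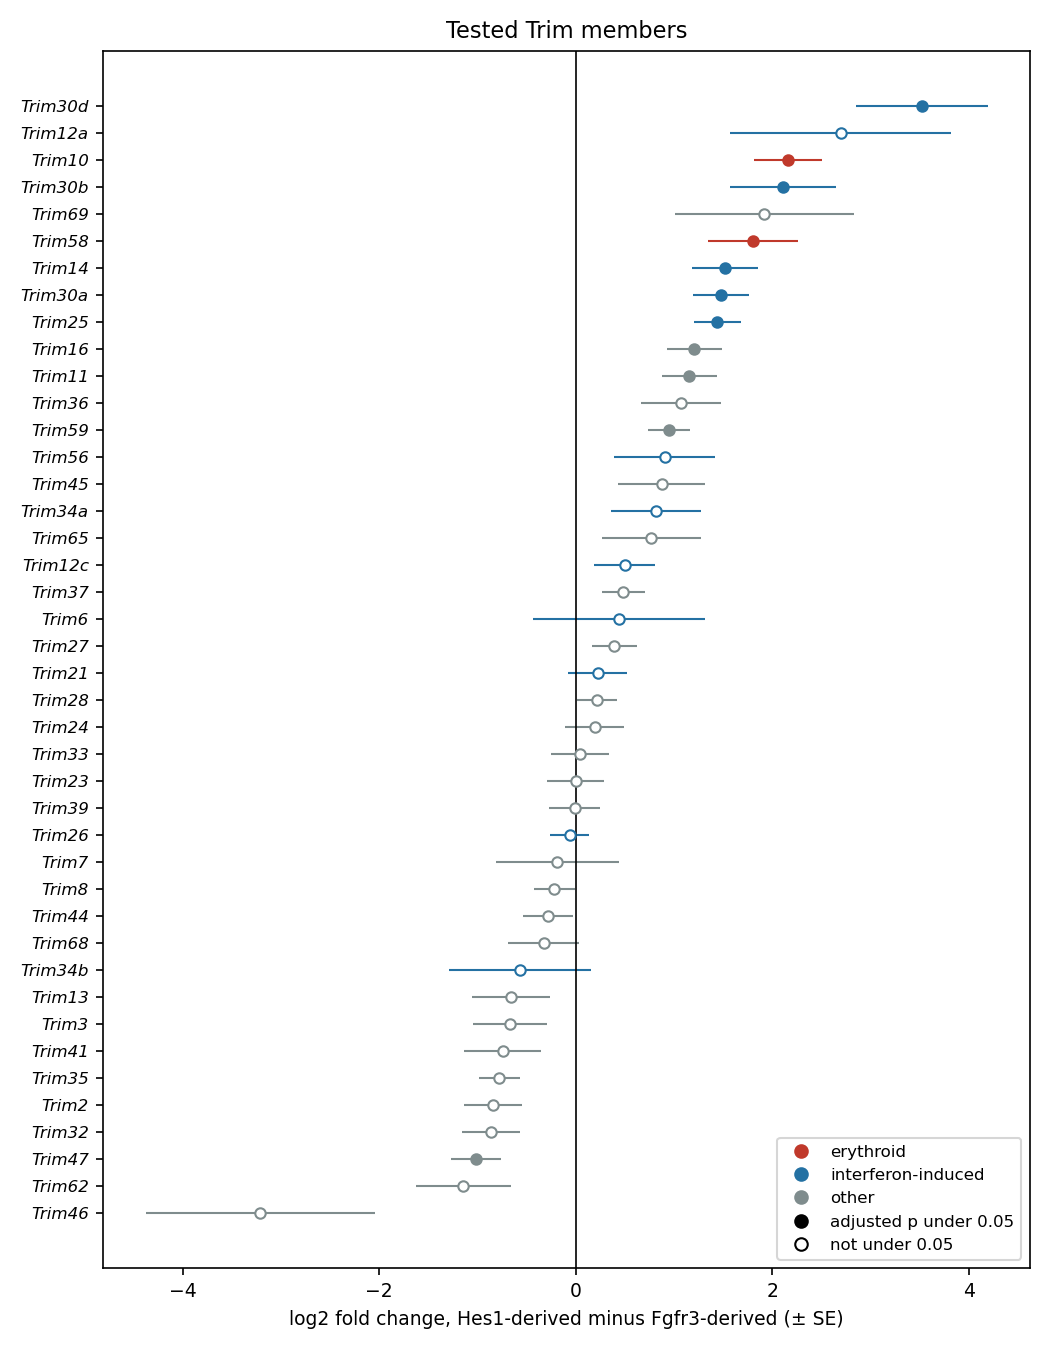
Log2 fold change (Hes1-derived minus Fgfr3-derived, x axis, bars are ± SE) of the 42 tested Trim members, one per line, coloured by role, with filled points for an adjusted p under 0.05. Both erythroid and 5 interferon-induced members are filled on the right of 0, and Trim47 is the single filled point on the left.

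The erythroid members were both higher in Hes1-derived libraries. Trim10 had 571 and 374 CPM in Hes1-derived replicates 1 and 3, against 78.0 and 133 CPM in Fgfr3-derived replicates 2 and 3. Both Hes1-derived values stood well above both Fgfr3-derived ones, a 4.47-fold difference (log2 fold change 2.16 ± 0.34 SE, adjusted p = 0.019). It was called under all 14 alternatives, with log2 fold changes between 1.82 and 2.85. Among these, the adjusted p under 0.10 applies to the same fit and could not end a call. Its gene lies at chr17:36869574-36877833 (build GRCm38) on the plus strand. Its neighbour Trim15, on the minus strand at chr17:36860691-36867210, had 0 and 2 reads in Hes1-derived against 2 and 3 reads in Fgfr3-derived libraries. Trim26 and Trim39 on the same chromosome had log2 fold changes of −0.06 and −0.01.

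Trim58 had 21.8 and 13.1 CPM in Hes1-derived libraries, against 3.23 and 6.73 CPM in Fgfr3-derived libraries. The groups did not overlap, and the 3.50-fold difference just passed the test (1.81 ± 0.46 SE, adjusted p = 0.047). The call ended without Hes1-derived replicate 1 (adjusted p = 0.15), Hes1-derived replicate 3 (0.069) or Fgfr3-derived replicate 2 (0.13), and after scaling to eGFP (0.061). Hes1-derived replicate 1 was the higher of its group and Fgfr3-derived replicate 3 the higher of its group for both Trim10 and Trim58.

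Per length, Trim10 had the highest level of the family, at 210 CPM per kilobase of exon in Hes1-derived against 47.0 in Fgfr3-derived libraries. In Hes1-derived libraries it ranked 1 of 56, and in Fgfr3-derived libraries 3, after Trim35 and Trim8. Trim10 took 26.8% of all Trim reads in Hes1-derived replicate 1 (26.4% to 27.2%, exact binomial 95% interval), and its share of replicate 3 was 20.4% (20.0% to 20.7%). In Fgfr3-derived replicate 2 it took 5.15% (4.94% to 5.38%) and in replicate 3 it took 9.04% (8.76% to 9.33%). These intervals cover counting error only.

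**Figure D2:**
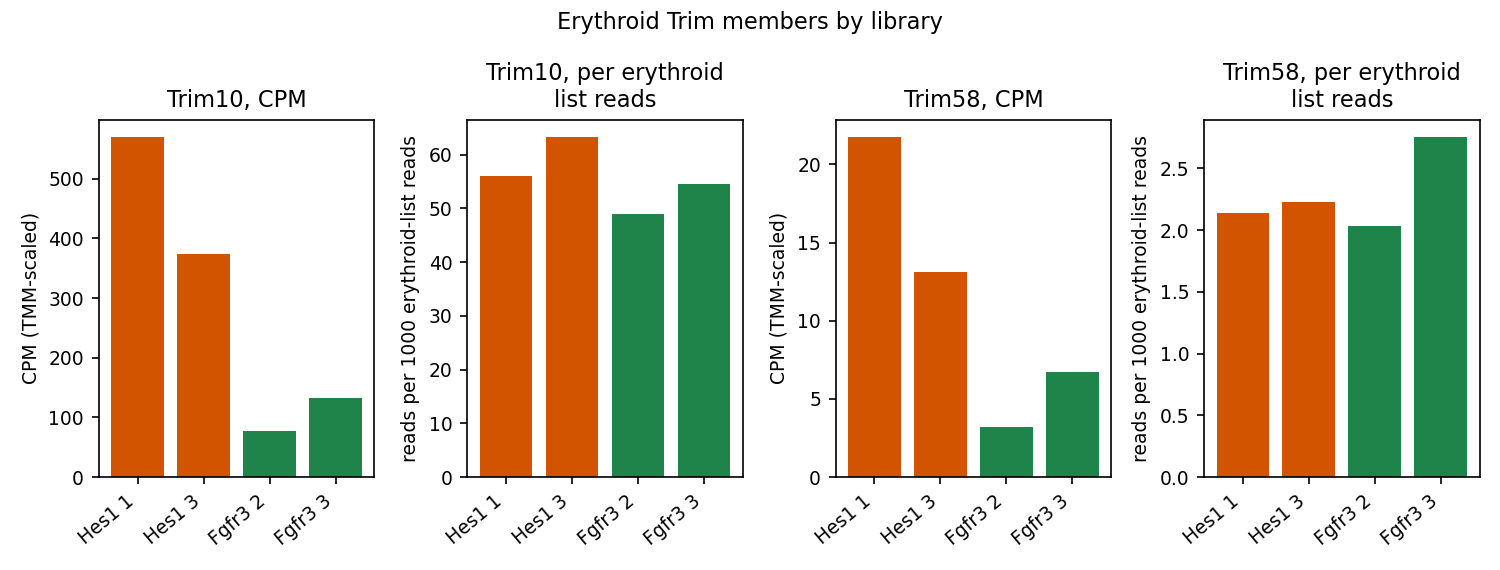
Trim10 and Trim58 in each library (x axis, Hes1-derived replicates 1 and 3, then Fgfr3-derived replicates 2 and 3), as CPM and as reads per 1000 reads of the erythroid gene list. Each bar is 1 library; the CPM bars differ several-fold between groups, while the bars per 1000 list reads lie between 49.0 and 63.4 for Trim10 and between 2.03 and 2.76 for Trim58.

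Red cell genes other than the Trim members were higher in the same libraries. Of 20 tested genes of the erythroid list 19 were higher and 1 did not pass, with a median of 1.70. Their summed level was 10176 and 5903 CPM in Hes1-derived libraries against 1591 and 2441 CPM in Fgfr3-derived libraries. Alas2, the first enzyme of erythroid haem synthesis, averaged 2854 ± 1391 CPM (SD, n = 2) in Hes1-derived against 451 ± 119 CPM in Fgfr3-derived libraries, and the anion exchanger Slc4a1 averaged 1838 ± 836 against 502 ± 155 CPM.

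Set against the erythroid list, the 2 members differed far less. The globin genes Hba-a1, Hba-a2, Hbb-bs and Hbb-bt had no row in the counts and are not part of the list's reads. In Hes1-derived libraries Alas2 alone gave 87263 and 46413 of 231354 and 146473 list reads. In Fgfr3-derived libraries it gave 9301 and 13991 of 40362 and 63858. Per 1000 reads of the list's 21 genes, Trim10 had 56.1 and 63.4 reads in Hes1-derived against 49.0 and 54.6 in Fgfr3-derived libraries, a ratio of means of 1.15. On this scale both Hes1-derived values of Trim10 still lay above both Fgfr3-derived ones. Trim58 had 2.14 and 2.23 reads in Hes1-derived against 2.03 and 2.76 in Fgfr3-derived libraries, and its groups overlapped. The ratio of Trim10 to Trim58 reads was 26.2 and 28.5 in Hes1-derived against 24.1 and 19.8 in Fgfr3-derived libraries. The part of red cell RNA in the Trim10 and Trim58 differences was not otherwise tested.

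The interferon-induced members split into those that were higher in Hes1-derived libraries and those that did not pass the test. Trim25, Trim14, Trim30a, Trim30b and Trim30d passed; Trim6, Trim12a, Trim12c, Trim21, Trim26, Trim34a, Trim34b and Trim56 did not. Of all 13, 11 had a positive log2 fold change.

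Trim25, the ligase that helps the viral RNA sensor RIG-I to signal, had 74.5 and 82.8 CPM in Hes1-derived against 33.4 and 24.4 CPM in Fgfr3-derived libraries. The groups were well apart, at a 2.72-fold difference (1.44 ± 0.24 SE, adjusted p = 0.019). The call ended without Hes1-derived replicate 3 (adjusted p = 0.061) and after scaling to eGFP (0.063). Trim14, a mitochondrial adaptor of the same sensing pathway, had 16.0 and 13.7 CPM in Hes1-derived against 4.50 and 5.85 CPM in Fgfr3-derived libraries. This 2.86-fold difference passed (1.52 ± 0.34 SE, adjusted p = 0.033), but not without Hes1-derived replicate 1 (0.10), Hes1-derived replicate 3 (0.095) or Fgfr3-derived replicate 2 (0.11), nor after scaling to eGFP (0.081). Its log2 fold change was also larger after eGFP scaling, at 2.30, where the median of all genes was 0.83. Genes on the opposite strand, Nans among them, cover 38.0% of the exon bases of Trim14. The strand setting of the counting is not given, so reads of Trim14 cannot be told apart from theirs there.

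Trim30a, Trim30b and Trim30d are mouse relatives of Trim5, the retroviral restriction factor of primates. Trim30a, which restrains NF-kappaB signalling below Toll-like receptors in mouse cells, had 21.2 and 27.9 CPM in Hes1-derived against 8.87 and 8.68 CPM in Fgfr3-derived libraries. It was 2.79-fold higher (1.48 ± 0.29 SE, adjusted p = 0.025), a call that ended when Hes1-derived replicate 3 was left out (adjusted p = 0.13) or when Fgfr3-derived replicate 2 was (0.072), and after scaling to eGFP (0.059). With eGFP scaling, which moved the median of all genes to 0.83, the log2 fold change of Trim30a rose to 2.40. Trim30d was the member with the highest log2 fold change, at 3.53 ± 0.67 (SE, adjusted p = 0.024). It had 94 and 88 reads in Hes1-derived libraries, against 5 and 12 reads in Fgfr3-derived libraries, or 4.13 and 3.55 CPM against 0.197 and 0.459 CPM. Leaving out Hes1-derived replicate 3 raised the adjusted p to 0.055, and leaving out Fgfr3-derived replicate 2 raised it to 0.072.

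Trim30b had 3.61 and 4.27 CPM in Hes1-derived against 0.749 and 1.07 CPM in Fgfr3-derived libraries (2.11 ± 0.54 SE, adjusted p = 0.048). This 4.31-fold difference lost its call when any 1 library was left out, with adjusted p of 0.078 and 0.18 without Hes1-derived replicates 1 and 3 and 0.16 and 0.059 without Fgfr3-derived replicates 2 and 3, and after scaling to eGFP (0.053). With eGFP scaling, and its shift of the median of all genes to 0.83, the log2 fold change of Trim30b rose to 2.96. Of all 50-base windows of the transcripts, 5.98% in Trim30a and 7.49% in Trim30d also occur in another gene, the other of the pair foremost. The ratio of the 2 genes differed between groups: Trim30a had 5.12 and 7.86 reads for each Trim30d read in Hes1-derived libraries against 45.0 and 18.9 in Fgfr3-derived libraries.

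**Figure D3:**
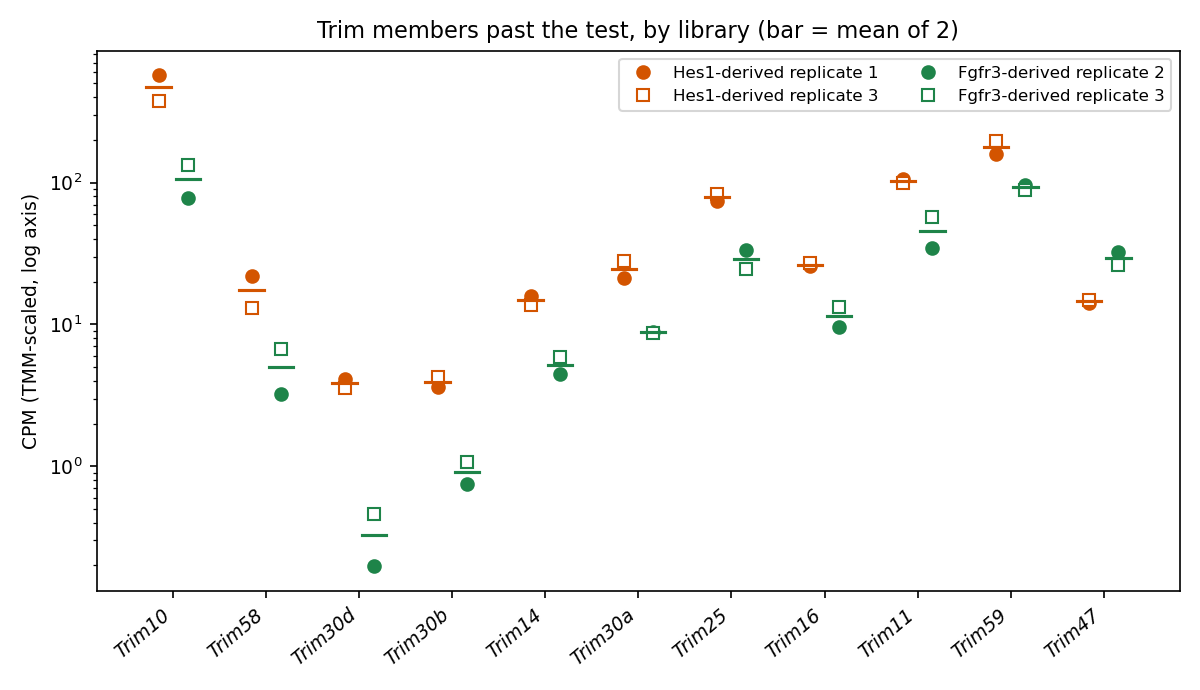
CPM on a log axis (y) of the 11 Trim members with an adjusted p under 0.05, in each of the 4 libraries (points), with the mean of each group as a short bar. All except Trim47 sit higher in both Hes1-derived libraries, and Trim30d shows the widest gap, with 4.13 and 3.55 CPM against 0.197 and 0.459 CPM.

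Trim12a, another mouse relative of Trim5, differed widely inside the Fgfr3-derived group. It had 289 and 351 reads in Hes1-derived libraries, against 103 reads in Fgfr3-derived replicate 2 and 2 reads in Fgfr3-derived replicate 3. On the CPM scale these were 12.7 and 14.1 in Hes1-derived against 4.06 and 0.0765 in Fgfr3-derived libraries, so the Fgfr3-derived libraries were 53.1-fold apart from each other. Trim12a did not pass the test (2.70 ± 1.13 SE, adjusted p = 0.16). It did pass without Fgfr3-derived replicate 2 (7.38, adjusted p = 0.024), without Fgfr3-derived replicate 3 (1.77, 0.037), with limma-voom (4.45, 0.048) and after scaling to the stroma list (3.58, 8.96e-05) or to eGFP (3.79, 0.011). Its close relative Trim12c, which in mouse cells promotes interferon production, had 16.1 and 15.0 CPM in Hes1-derived against 12.8 and 9.25 CPM in Fgfr3-derived libraries (0.50 ± 0.31 SE, adjusted p = 0.33). Other genes, Trim5 foremost, hold 10.4% of the 50-base windows of Trim12a and 33.0% of those of Trim12c.

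On chromosome 7, 8 of the interferon-induced members lie side by side, in the order Trim6, Trim34a, Trim12a, Trim34b, Trim12c, Trim30b, Trim30a and Trim30d, from chr7:104218793 to 104507849 (build GRCm38). Among them the 3 Trim30 genes at the distal end were higher in Hes1-derived libraries and the other 5 did not pass. Trim34a had 8.14 and 7.37 CPM in Hes1-derived against 5.95 and 2.83 CPM in Fgfr3-derived libraries (0.82 ± 0.46 SE, adjusted p = 0.28). Trim34b had 0.792 and 0.524 CPM against 1.065 and 0.879 CPM (−0.56 ± 0.72 SE, adjusted p = 0.66), and 56.8% of its 50-base windows also occur in Trim34a, which makes the reads of both uncertain. Trim6 was at 1.89 and 1.09 CPM against 1.85 and 0.344 CPM, and the groups overlapped (0.44 ± 0.88 SE, adjusted p = 0.79).

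**Figure D4:**
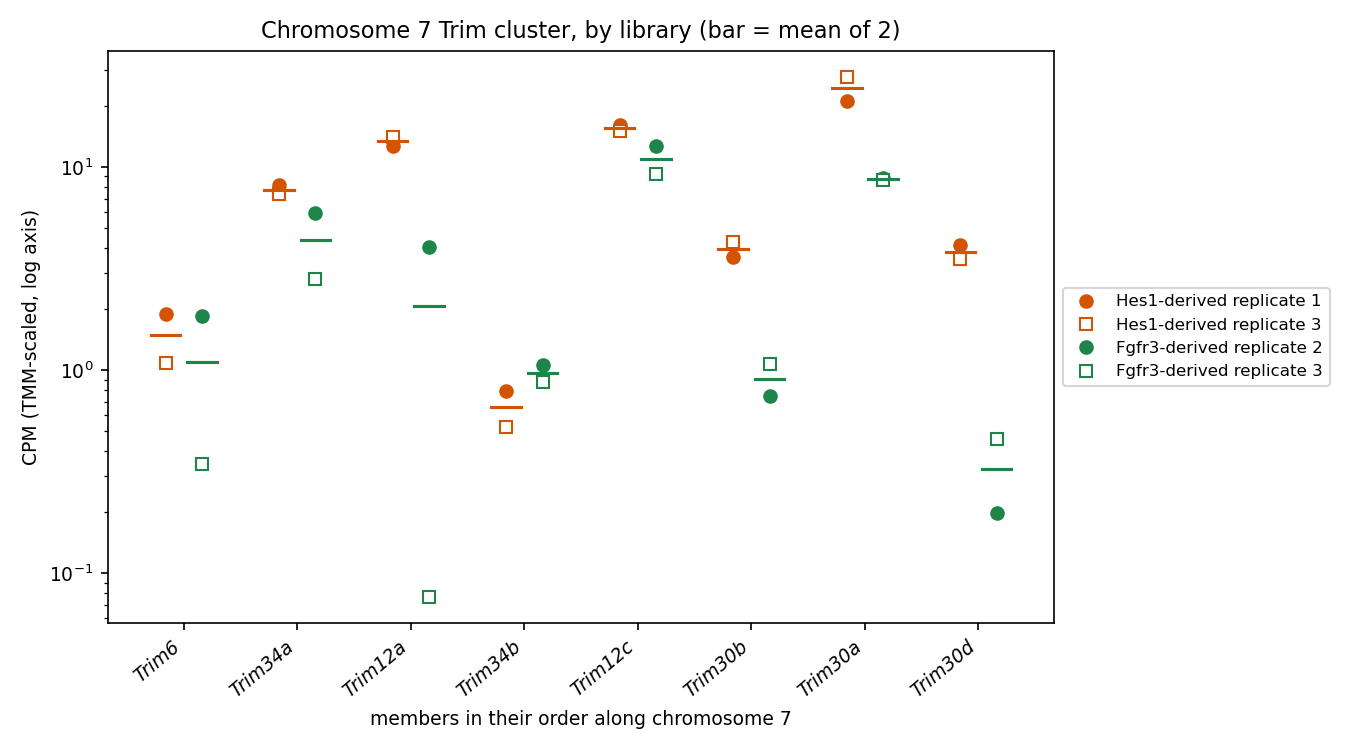
CPM on a log axis (y) of the 8 neighbouring Trim members in their order along chromosome 7 (x), in each library (points), with short bars for group means. Trim30b, Trim30a and Trim30d show both Hes1-derived points above both Fgfr3-derived points, and Trim12a has Fgfr3-derived replicate 3 at 0.0765 CPM, far below replicate 2 at 4.06 CPM.

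The interferon-induced members Trim21, Trim26 and Trim56 lie outside this cluster and did not pass the test. Trim21, the antibody receptor of the cytosol, had 26.6 and 20.4 CPM in Hes1-derived against 24.0 and 16.2 CPM in Fgfr3-derived libraries (0.22 ± 0.30 SE, adjusted p = 0.67). Trim26 had 60.35 and 58.0 CPM against 65.2 and 58.3 CPM (−0.06 ± 0.20 SE, adjusted p = 0.87). The groups overlapped for Trim21 and Trim26, although the windows of both hold a pair of ISRE matches. Trim56, which takes part in sensing cytosolic DNA, had 7.92 and 4.07 CPM in Hes1-derived against 4.02 and 2.37 CPM in Fgfr3-derived libraries (0.91 ± 0.51 SE, adjusted p = 0.29).

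Interferon-induced genes outside the Trim names also split into higher genes and genes that did not pass. Of 34 tested, 8 were higher (23.5%, where 5.24% of all tested genes were called higher), 0 were lower and 26 did not pass. A positive log2 fold change was found for 30 of the 34 (median 0.46). Their summed level was 2075 and 1740 CPM in Hes1-derived against 1050 and 768 CPM in Fgfr3-derived libraries. Rsad2, the antiviral enzyme viperin, averaged 452 ± 140 CPM in Hes1-derived against 59.8 ± 8.36 CPM in Fgfr3-derived libraries (log2 fold change 2.92 ± 0.29, adjusted p = 0.013). Ifi27l2a (3.29 ± 0.38), Oas3 (2.52 ± 0.30) and Cmpk2 (1.49 ± 0.21) were also higher. By contrast Ifit3 and Stat2, both standard interferon targets named after their values were seen, had log2 fold changes of 0.04 and 0.12 and did not pass.

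Per 1000 reads of that interferon list, Trim25 had 35.9 and 47.6 reads in Hes1-derived against 31.8 and 31.7 in Fgfr3-derived libraries. Trim30d had 1.99 and 2.04 against 0.188 and 0.597, and Trim26 had 29.1 and 33.3 against 62.1 and 75.9. Trim30a overlapped between the groups on this scale. All interferon-induced members summed had 122 and 145 reads in Hes1-derived against 159 and 170 in Fgfr3-derived libraries, so that Hes1-derived libraries lay below. In Hes1-derived libraries Rsad2 gave 12516 and 8763 of 47178 and 43172 list reads. In Fgfr3-derived libraries it gave 1667 and 1410 of 26630 and 20101. Values on this scale thus depend on the abundant genes of the list, and a factor common to members and list was not tested.

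Some white blood cell markers were higher in the same libraries as Trim25, Trim14 and the Trim30 genes. All 12 listed pan-leukocyte markers were detected, of which 6 were higher and 6 did not pass, with sums of 7159 and 8212 CPM in Hes1-derived against 2010 and 4382 CPM in Fgfr3-derived libraries. All 12 B lymphocyte markers were higher, with sums of 2817 and 2696 against 407 and 721 CPM. Of 11 macrophage markers 2 were higher and 9 did not pass, with sums of 1683 and 1462 CPM in Hes1-derived libraries against 1936 and 1155 CPM in Fgfr3-derived libraries, which overlapped. The 11 neutrophil markers did not pass, with sums of 26588 and 31151 against 8709 and 21559 CPM, nor did the 9 tested megakaryocyte markers, whose groups all overlapped. Per 1000 pan-leukocyte reads, Trim25 had 10.4 and 10.1 reads in Hes1-derived against 16.6 and 5.57 in Fgfr3-derived libraries, and Trim30a had 2.96 and 3.40 against 4.41 and 1.98, so that both overlapped. Trim14 overlapped as well, at 2.23 and 1.66 against 2.24 and 1.33. Trim30d lay apart on this scale, at 0.578 and 0.432 against 0.0981 and 0.105, and so did Trim30b, at 0.504 and 0.520 against 0.373 and 0.244. The part of leukocytes in these differences was not otherwise tested.

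Among the other 27 tested members, 3 were higher in Hes1-derived libraries (11.1%, where 5.24% of all tested genes were called higher). Of these 27, 1 was lower (3.70%, where 6.56% of all tested genes were called lower). Trim59, a RING protein with a membrane anchor, had 160 and 198 CPM in Hes1-derived against 96.25 and 88.8 CPM in Fgfr3-derived libraries, 1.93-fold higher (0.95 ± 0.21 SE, adjusted p = 0.033). Trim16, which lacks a RING domain and acts in the clearance of damaged membranes, had 25.6 and 27.1 CPM against 9.62 and 13.2 CPM, 2.31-fold higher (1.21 ± 0.28 SE, adjusted p = 0.038). Trim11, a ligase that removes misfolded proteins, had 105 and 99.7 CPM against 34.4 and 57.4 CPM, 2.23-fold higher (1.16 ± 0.28 SE, adjusted p = 0.041). For these 3 genes, picked by the test, both Hes1-derived values exceeded both Fgfr3-derived ones, as for 29.8% of all tested genes.

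Their calls did not hold when some single libraries were left out, but their direction did. Leaving out 1 library, the lowest log2 fold changes were 0.788 for Trim59, 1.013 for Trim16 and 0.852 for Trim11. Such a fit keeps only 1 library in a group, so a lost call does not show that the difference came from the library left out. Trim59 lost its call with Hes1-derived replicate 3 left out (adjusted p = 0.17), and likewise Fgfr3-derived replicate 2 (0.081) or Fgfr3-derived replicate 3 (0.056). Trim16 lost it without Hes1-derived replicate 1 (0.081), Hes1-derived replicate 3 (0.15) or Fgfr3-derived replicate 2 (0.13), and Trim11 without the same libraries (0.092, 0.12 and 0.096). Each of the 3 also missed the threshold after scaling to eGFP (0.16, 0.11 and 0.13), while their log2 fold changes rose to 1.86, 2.04 and 1.94. The median of all genes rose to 0.83 under that scaling. Per 1000 pan-leukocyte reads, Trim59 had 22.3 and 24.1 reads in Hes1-derived against 47.9 and 20.3 in Fgfr3-derived libraries, which overlapped.

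Trim47 was the single lower member. It had 14.25 and 14.8 CPM in Hes1-derived libraries, against 32.6 and 26.3 CPM in Fgfr3-derived libraries, 2.03-fold lower (−1.02 ± 0.25 SE, adjusted p = 0.046). The groups were apart in all 4 libraries, but the call ended when any library was left out, with adjusted p of 0.13 and 0.17 without Hes1-derived replicates 1 and 3 and 0.18 and 0.0501 without Fgfr3-derived replicates 2 and 3. It also ended with library totals (0.054) and after scaling to the stroma list (−0.34, 0.70) or to eGFP (−0.13, 0.91). Part of its exon sequence overlaps Trim65 on the same strand, and 6.58% of its 50-base windows occur there. Osteoblast markers were lower in the same libraries, 8 of 12 past the test, with sums of 5730 and 5591 CPM in Hes1-derived libraries against 29176 and 34862 CPM in Fgfr3-derived libraries. Their part in the Trim47 difference was not tested.

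Trim35, first described as a blood lineage switch gene, came closest to the threshold among the rest. It had 156 and 127 CPM in Hes1-derived against 251.3 and 233 CPM in Fgfr3-derived libraries (−0.78 ± 0.21 SE, adjusted p = 0.058). The groups did not overlap, and DESeq2 (adjusted p = 0.018) and limma-voom (0.049) called it lower, while scaling to eGFP turned its log2 fold change to 0.03. Per length it had 30.6 CPM per kilobase in Hes1-derived libraries, against 52.4 in Fgfr3-derived libraries, where it was the most abundant member.

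**Figure D5:**
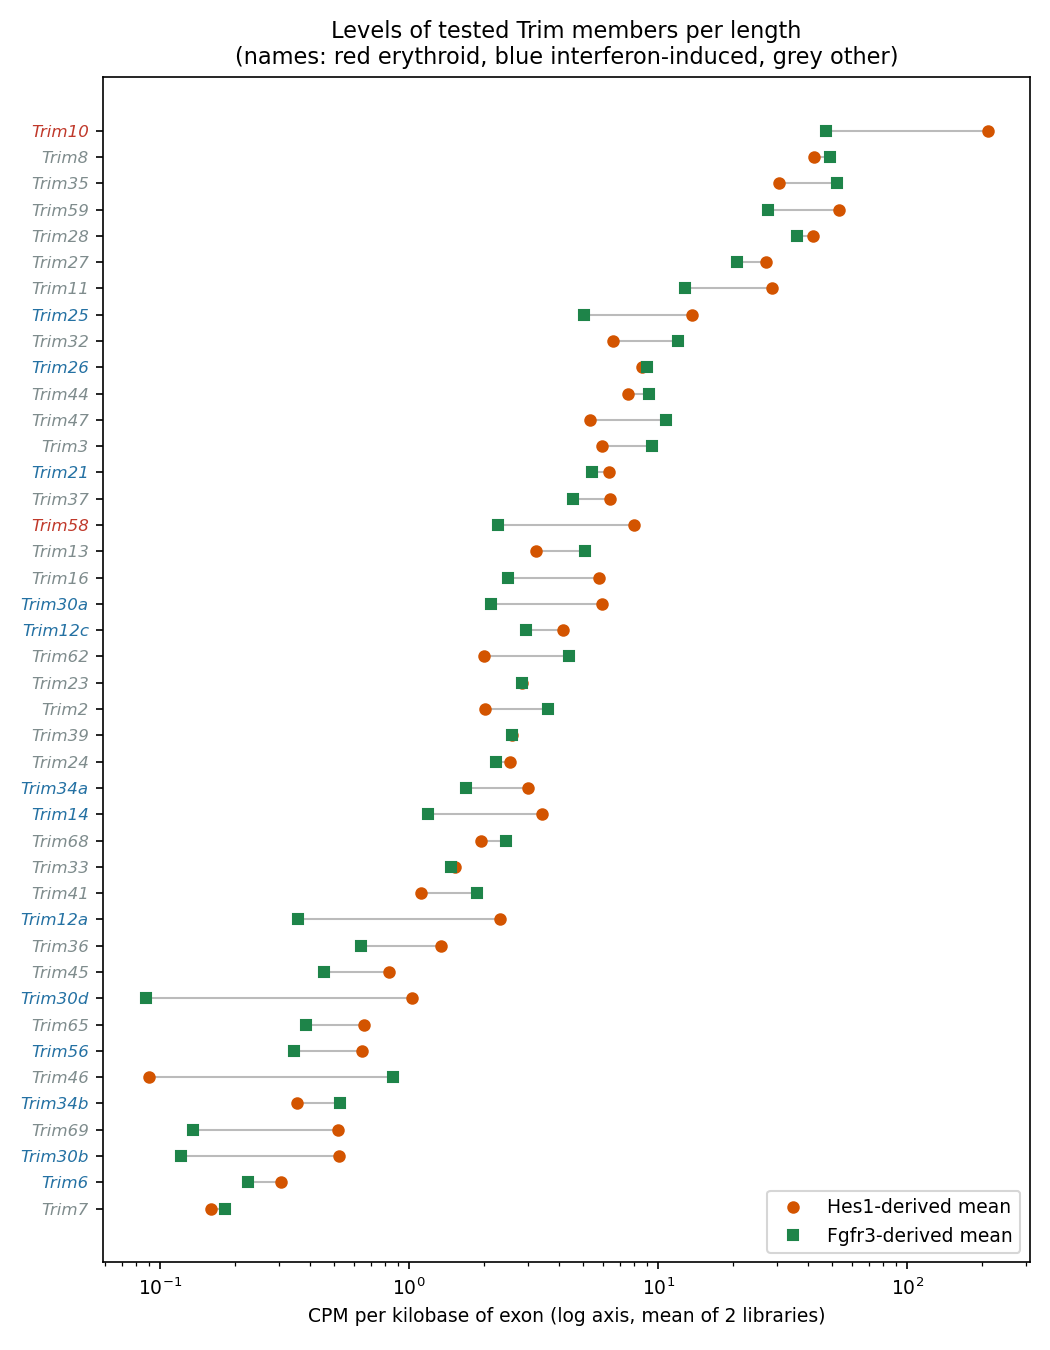
Mean level of the 42 tested Trim members in CPM per kilobase of exon (x, log axis), with Hes1-derived (circles) and Fgfr3-derived (squares) means of 2 libraries joined by a line. Trim10 is at the top with 210 in Hes1-derived against 47.0 in Fgfr3-derived libraries, and the levels of the family span more than 3 decades.

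The members with PHD and bromodomains, which bind chromatin, did not pass the test. Trim28, the corepressor of KRAB zinc finger proteins, had 176 and 172 CPM in Hes1-derived against 163 and 137 CPM in Fgfr3-derived libraries (0.21 ± 0.20 SE, adjusted p = 0.53). Trim24, a nuclear receptor cofactor, had 20.4 and 22.9 against 23.3 and 14.6 CPM (0.19 ± 0.30 SE, adjusted p = 0.73). Of 10 listed genes of the Trim28 silencing complex and its partners 1 was lower and 9 did not pass. This share of 10% lower stands beside 6.56% of all tested genes. The lower gene was Zfp57, a KRAB zinc finger gene of imprinted loci, at 1.03 ± 0.145 CPM in Hes1-derived against 4.40 ± 1.14 CPM in Fgfr3-derived libraries (−2.09 ± 0.52 SE, adjusted p = 0.045).

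The 3 tested members with NHL repeats, Trim2, Trim3 and Trim32, did not pass the test. Their Hes1-derived values lay below both Fgfr3-derived ones, as for 32.1% of all tested genes, and for Trim3 only by 37.5 against 38.1 CPM between the nearest libraries. Trim32, mutated in a human limb-girdle muscular dystrophy, had 24.85 and 17.8 CPM in Hes1-derived against 45.7 and 31.6 CPM in Fgfr3-derived libraries (−0.86 ± 0.29 SE, adjusted p = 0.099). Trim3 had 37.5 and 16.9 against 38.1 and 48.4 CPM (−0.67 ± 0.38 SE, adjusted p = 0.29). Trim2, which acts on neurofilaments in neurons, had 48.7 and 30.7 against 83.5 and 59.1 CPM (−0.84 ± 0.30 SE, adjusted p = 0.11).

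Tested members that bind microtubules through a COS box were Trim46 and Trim36. Trim46, known from the axon initial segment, had 0 and 17 reads in Hes1-derived libraries, against 93 and 75 reads in Fgfr3-derived libraries. The groups were apart, but the spread within the Hes1-derived libraries was wide (−3.21 ± 1.17 SE, adjusted p = 0.12). DESeq2 called it lower (adjusted p = 0.021), and so did the fit without Hes1-derived replicate 3 (0.026), where 1 library with 0 reads stands for its group. Trim36 had 7.65 and 5.60 CPM in Hes1-derived against 3.35 and 2.94 CPM in Fgfr3-derived libraries (1.07 ± 0.41 SE, adjusted p = 0.13).

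Further abundant members did not pass either. Trim8, a regulator of JAK-STAT signalling through SOCS1, had 175 and 138 CPM in Hes1-derived against 184 and 179 CPM in Fgfr3-derived libraries (−0.22 ± 0.21 SE, adjusted p = 0.55). Trim27 had 149 and 150 CPM against 93.7 and 133 CPM (0.40 ± 0.23 SE, adjusted p = 0.31). Trim44, which lacks a RING domain, had 48.95 and 36.4 CPM against 59.2 and 44.3 CPM, and the groups overlapped (−0.28 ± 0.26 SE, adjusted p = 0.51).

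Genes of the family under other symbols were outside the naming rule. Pml, which builds nuclear bodies and is itself induced by interferon, averaged 93.3 ± 10.9 CPM in Hes1-derived against 47.3 ± 1.15 CPM in Fgfr3-derived libraries and was higher (0.98 ± 0.21 SE, adjusted p = 0.030). Mid2 (−1.66 ± 0.49, adjusted p = 0.068), Mefv, the pyrin gene of myeloid cells (0.95 ± 0.52, 0.27), and Mid1 (−0.58 ± 0.47, 0.46) did not pass.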

How the data were processed

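RNA was amplified with a SMARTer kit and sequenced on an Illumina HiSeq4000, per the series' design text. The deposited counts are whole reads per gene symbol and library; the submitters' processing notes name TopHat2 2.0.13, Bowtie2 2.2.1, HTSeq and DESeq2 among the authors' tools and build mm10, without roles. Annotation and strand setting are not given in the sources used here. The other deposited tables, labelled depth-normalized and rlog, were not used.

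The groups were compared in edgeR 4.0.16 (R 4.3.3) by the quasi-likelihood test with TMM scaling, robust dispersions, a minimum count of 10 and Benjamini-Hochberg adjustment over 14330 genes (threshold 0.05). Positive log2 fold changes mean higher in Hes1-derived libraries. SE was derived from each log2 fold change and its quasi-likelihood F. With 2 libraries per group, an exact two-sided permutation test cannot go below p = 0.333, so none is given. Lengths are exon unions of GENCODE M21 (GRCm38), which matched all 56 members. The fit was also run on simulated data with the same dispersion for all genes, which does not test the calls made here.

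Alternatives were RLE, upper-quartile and total scaling, DESeq2 1.42.0, limma-voom 3.58.1, no or a stricter filter (50 reads in both libraries of a group), an adjusted p under 0.10, scaling to the stroma list or eGFP, and leaving out each library. The adjusted p under 0.10 was applied to the main fit, so it could add calls but not end them. The members, lists and alternatives were chosen with earlier results of these data known. Named were all erythroid and interferon-induced members, every other called member, the 2 most abundant uncalled members of each structural class, called or abundant genes of the pathway lists, and some genes of other cells. Trim2, Trim15, Trim39, Trim62, Trim71 and the other untested members were named after their values were seen. Role and class lists came from general knowledge of the family.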

Additional observations from a re-analysis of the deposited data

How the results depend on the processing

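Of 404 log2 fold changes (29 named members, up to 14 alternatives each) 340 kept direction and side of the threshold, 39 lost and 11 gained a call, and 14 turned direction, none of them of a called gene. With RLE or upper-quartile factors, no filter and the stricter filter the family kept the same 10 higher and 1 lower members. The 1 lower member became 0 with library totals and after scaling to the stroma list, 3 with DESeq2 and with an adjusted p under 0.10, and 2 with limma-voom, and the same holds for the other members lower. After scaling to eGFP 3 members were higher (1 erythroid, 2 interferon-induced, 0 other) and 0 lower, with 343 genes called in all. The log2 fold changes of the 10 higher members all rose under this scaling, also where the call ended. The median of all genes rose as well, from −0.02 to 0.83, so these rises follow from that shift. All genes called were 1691 as reported, 2986 with DESeq2 and 3075 with an adjusted p under 0.10.

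Leaving out 1 library, the spread within the group that keeps 2 libraries stands for the lone one. The genes called then ranged from 424 to 2223, members higher from 1 to 9, members lower from 0 to 1, erythroid members higher from 1 to 2, interferon-induced members higher from 0 to 5, other members higher from 0 to 2 and other members lower from 0 to 1. The 1 lower member was then Trim62 without Hes1-derived replicate 1 and Trim46 without Hes1-derived replicate 3, and in no case Trim47.

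Log2 fold changes that turned direction were those of Trim26 (0.0094 with library totals, 0.59 and 0.79 after stroma and eGFP scaling, −0.093 to 0.039 leaving out 1 library), Trim34b (0.038 and 0.19 after stroma and eGFP scaling), Trim44 (0.35 and 0.53), Trim8 (0.39 and 0.58), Trim35 (0.031 after eGFP scaling), Trim24 (−0.056 to 0.59 leaving out 1 library) and Trim6 (−0.27 to 2.11 leaving out 1 library). The stroma and eGFP scalings move the median of all genes to 0.63 and 0.83, so the turns under them follow from that shift. The cause of the other changes was not tested. No paired analysis was possible because the groups share only replicate number 3. The 14 members with 36 or fewer reads in all did not pass the low-count filter and could not be compared at this depth.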
